A study of Rattus norvegicus with 47 samples.

Results

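The genes described here are those of the formyl peptide receptors Fpr1, Fpr2 and Fpr2l and of annexin A1 (Anxa1), measured in rat blood before and after middle cerebral artery (MCA) occlusion. They were found by an exact match to a gene symbol of the array annotation, with the probe set of highest mean signal kept for each symbol. The 4 genes correspond to 3 probe sets of the 27596 on the array, because Fpr2 and Fpr2l are both symbols of the same probe set, and no other probe set carried any of the 4 symbols. In the RefSeq gene table for GRCr8, Fpr2l is listed as an older name of Fpr2, so the shared probe set is described below as Fpr2/Fpr2l.

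Blood came from 8 male spontaneously hypertensive rats (SHR), 16 weeks old, which all had the same transient occlusion by a silicon-coated thread. Each rat was sampled at 0 h, immediately before anesthesia, and at 1, 2, 3, 6 and 24 h after occlusion. Tail vein blood was used up to 6 h and heart blood at 24 h, so the effect of the last time point and that of the sampling site cannot be told apart. Surgery was under isoflurane, the thread was withdrawn under a further anesthesia between the 1 h and 2 h samples, and the 24 h sample followed an anesthetic overdose. There was no group with surgery or anesthesia alone in these arrays, so these cannot be told apart from the occlusion. RNA came from heparinized whole blood cell pellets, and the arrays number 8 per time point, but 7 at 6 h. In whole blood, fewer cells of a type and less RNA per cell cannot be told apart.

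Formyl peptide receptors are G protein-coupled receptors of neutrophils and monocytes which sense peptides that begin with formylmethionine, as released by bacteria and by mitochondria of damaged cells. Fpr1 is the high-affinity receptor of such peptides and triggers chemotaxis, degranulation and the oxidative burst. Fpr2 binds a wider range of ligands, among them cathelicidin, serum amyloid A, lipoxin A4 and annexin A1. Annexin A1 is a calcium-dependent phospholipid-binding protein, abundant in neutrophils and monocytes and induced by glucocorticoids in many cells, which limits neutrophil recruitment through these receptors.

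On the rn5 positions of the array annotation, both receptor probe sets lie on chromosome 1. The Fpr1 probe set spans chr1:60685360-60686427 on the plus strand and the Fpr2/Fpr2l probe set chr1:60719564-60720619 on the minus strand, 33136 bases away. The Anxa1 probe set spans chr1:245192534-245208894 on the minus strand. Exon and intron positions on rn5 were not used here.

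Promoter windows of Fpr2 and Anxa1 are shown because the signals of both rose after occlusion. They are RefSeq sequences of GRCr8, from 250 bases before to 50 bases after the annotated start and written 5′ to 3′ on the gene's strand, and Fpr2l has no entry apart from that of Fpr2. Capitals mark matches to any of 4 motifs searched on both strands. These were the glucocorticoid receptor letters AGAACA, the PU.1 letters GAGGAAG, the C/EBP letters TTGCNNAA and an NF-kB pattern of GGG, any 5 letters and CC. The windows are Fpr2 at chr1:67449387-67449686 (plus strand) and Anxa1 at chr1:227303683-227303982 (minus strand). The strands that RefSeq gives for Fpr1 (minus) and Fpr2 are opposite to those of the array annotation on rn5, while the order of these genes and the strand of Anxa1 are the same.
Fpr2: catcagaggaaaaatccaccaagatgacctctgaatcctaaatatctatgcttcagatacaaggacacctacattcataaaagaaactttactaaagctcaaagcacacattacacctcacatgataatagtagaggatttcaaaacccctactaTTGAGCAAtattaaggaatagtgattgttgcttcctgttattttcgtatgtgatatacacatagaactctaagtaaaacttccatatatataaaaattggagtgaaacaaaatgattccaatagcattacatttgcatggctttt
Anxa1: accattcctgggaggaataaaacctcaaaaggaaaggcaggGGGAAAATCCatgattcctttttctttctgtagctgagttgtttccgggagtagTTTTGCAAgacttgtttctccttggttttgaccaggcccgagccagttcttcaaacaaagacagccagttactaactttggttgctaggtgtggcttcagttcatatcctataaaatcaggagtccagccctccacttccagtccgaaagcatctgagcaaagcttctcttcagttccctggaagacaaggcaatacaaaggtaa
The Fpr2 window held 1 C/EBP match, and the Anxa1 window held 1 C/EBP match and 1 NF-kB match. Neither held the glucocorticoid receptor or PU.1 letters. Of 33469 promoter windows of 300 bases, 20.7% held the glucocorticoid receptor letters, 12.4% the PU.1 letters, 10.6% the C/EBP letters and 47.3% the NF-kB pattern. The start used for Anxa1 lies 3007 bases inside the outer end of the annotated gene, and other starts were not searched. The window given for Fpr1 is not shown as a promoter, since its start lies 7293 bases inside the gene and falls on the letters ATG.

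Fpr1 mRNA rose steeply after occlusion and was the largest change of the 3 probe sets at every later time point. Its mean log2 signal, as deposited by the authors, was 9.90 (SD 0.50) at 0 h, 12.13 (SD 0.23) at 1 h and 12.70 (SD 0.16) at 2 h. It was then 12.42 (SD 0.15) at 3 h, 12.37 (SD 0.09) at 6 h and 11.14 (SD 0.55) at 24 h. The range of mean plus or minus SD at 0 h did not overlap that of any later time point.

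Differences were tested by limma's moderated test, with p adjusted over all probe sets (Benjamini-Hochberg), and a probe set is said to be called where the adjusted p was below 0.05. Against 0 h, the log2 change of Fpr1 was 2.23 ± 0.16 (SE) at 1 h, a 4.69-fold rise (adjusted p = 4.1e-15). The change reached 2.80 ± 0.16 at 2 h, a 6.96-fold rise with a 95% interval from 2.48 to 3.12 on the log2 scale (adjusted p = 2.4e-19). Fpr1 thus stood near the top of the array, since only 1 probe set rose more at 1 h and only 3 rose more at 2 h. At 3 h and 6 h it was 5.75-fold and 5.55-fold higher than at 0 h. At 24 h it was still 2.36-fold higher (adjusted p = 7.3e-08), which is 44.3% of its largest log2 change, and 20 probe sets rose more at that time.

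The change of Fpr1 at 1 h, before the thread was withdrawn, was 79.6% of that at 2 h. A further rise of 0.57 ± 0.16 between 1 h and 2 h passed the test (adjusted p = 0.016), where 8.78% of all probe sets did in either direction. From 2 h to 3 h the difference of -0.28 did not pass the test (adjusted p = 0.41, 95% interval -0.60 to 0.04), and 3.53% of all probe sets passed it. With the spread of only these time points, the adjusted p of this step was 0.058, just short of the threshold. From 3 h to 6 h the difference was -0.05 (adjusted p = 0.91, 95% interval -0.38 to 0.28), where 4.78% passed. Between 6 h and 24 h Fpr1 fell by 1.23 on the log2 scale (adjusted p = 8.8e-08), in a comparison where 18.9% of all probe sets differed.

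Ordered by level, Fpr1 was lowest at 0 h, then at 24 h, 1 h, 6 h, 3 h and 2 h. The 24 h level was lower than that at 1 h by 0.99 (adjusted p = 1.6e-05), a comparison in which 5.85% of probe sets differed. The next steps up, from 1 h to 6 h, from 6 h to 3 h and from 3 h to 2 h, did not pass the test. For the first of these the difference was 0.24 (adjusted p = 0.35, 95% interval -0.09 to 0.57), where 19.4% of all probe sets passed.

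Fpr2/Fpr2l, the receptor shared by annexin A1 and lipid ligands, rose less than Fpr1 and was not measurably higher at 24 h. Its mean log2 signal was 8.93 (SD 0.33) at 0 h, 9.63 (SD 0.21) at 1 h and, at 2 h, 1.07 above the 0 h mean (SD 0.23). It was 9.64 (SD 0.26) at 3 h, 9.62 (SD 0.19) at 6 h and 8.88 (SD 0.32) at 24 h. The means at 1 to 6 h were above the 0 h mean by more than the SDs of either, and the range of mean plus or minus SD at 24 h overlapped that at 0 h.

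The log2 change of Fpr2/Fpr2l from 0 h was 0.70 ± 0.13 at 1 h (adjusted p = 3.0e-05) and 1.07 ± 0.13 at 2 h (adjusted p = 1.7e-09), the latter a 2.10-fold rise. The change was 0.71 at 3 h (adjusted p = 1.1e-05) and 0.68 at 6 h (adjusted p = 3.7e-05). At 24 h it was -0.05 ± 0.13 (adjusted p = 0.78), with a 95% interval from -0.31 to 0.20. The rise at 2 h was exceeded by 316 probe sets of the array.

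Between 1 h and 2 h Fpr2/Fpr2l differed by 0.37 ± 0.13, just short of the threshold (adjusted p = 0.057), and this step passed it under 3 of the alternatives listed in the closing section. The later differences of -0.36 from 2 h to 3 h (adjusted p = 0.11) and -0.03 from 3 h to 6 h (adjusted p = 0.94) did not pass. From 6 h to 24 h the signal fell by 0.74 (adjusted p = 2.7e-05). In order of level, 24 h and 0 h were lowest and did not differ beyond their spread. The 6 h, 1 h and 3 h samples followed and were likewise close to each other, with a difference of 0.01 between 3 h and 1 h (adjusted p = 0.97, 95% interval -0.24 to 0.27) where 10.4% of all probe sets passed. The 2 h sample was highest.

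Anxa1, whose protein is a ligand of these receptors, rose more slowly and was highest at 6 h. Its mean log2 signal was 10.61 (SD 0.26) at 0 h, 11.29 (SD 0.10) at 1 h and 11.76 (SD 0.18) at 2 h. It was 11.83 (SD 0.14) at 3 h, 12.25 (SD 0.08) at 6 h and 11.33 (SD 0.40) at 24 h. No range of mean plus or minus SD after occlusion overlapped that at 0 h.

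Against 0 h, Anxa1 rose by 0.68 ± 0.11 at 1 h (adjusted p = 2.6e-06), by 1.15 ± 0.11 at 2 h (adjusted p = 1.9e-12) and by 1.22 ± 0.11 at 3 h (adjusted p = 3.1e-13). The change at 6 h was 1.63 ± 0.11, a 3.10-fold rise with a 95% interval from 1.41 to 1.86 on the log2 scale (adjusted p = 5.9e-17), and 152 probe sets rose more. At 24 h Anxa1 was 1.65-fold above 0 h (adjusted p = 1.3e-06), which left 44.2% of the 6 h change, a share near that of Fpr1.

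Anxa1, like Fpr1, passed the test between 0 h and 1 h, 1 h and 2 h, and 6 h and 24 h, and it also passed between 3 h and 6 h, although differences between genes were not tested. It rose by 0.47 from 1 h to 2 h (adjusted p = 0.0022) and by 0.41 from 3 h to 6 h (adjusted p = 0.020), while the difference of 0.07 from 2 h to 3 h did not pass the test (adjusted p = 0.82). From 6 h to 24 h it fell by 0.91 (adjusted p = 8.9e-09). In order of level, 0 h was lowest, followed by 1 h and 24 h, which did not differ beyond their spread (0.05, adjusted p = 0.89). The 2 h level was above that at 24 h by 0.43 (adjusted p = 0.0029), where 16.2% of all probe sets differed, and 3 h and 6 h were higher again.

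**Figure D1:**
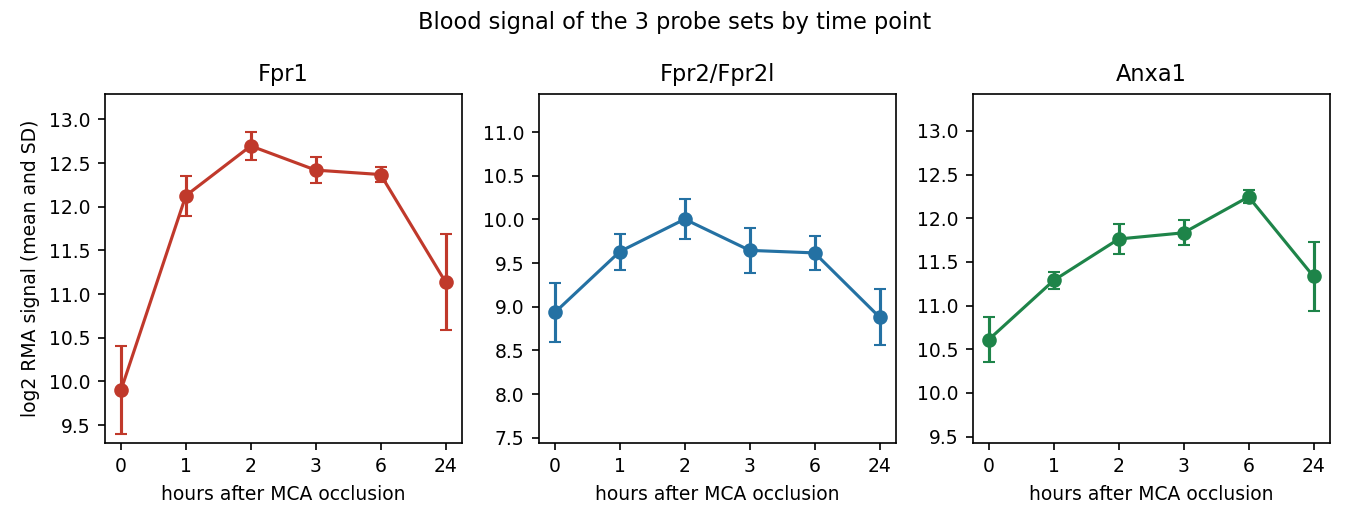
Deposited mean log2 RMA signal (y axis) of the Fpr1, Fpr2/Fpr2l and Anxa1 probe sets at each time point (x axis, hours after MCA occlusion, evenly spaced), with bars for the deposited SD over 8 arrays (7 at 6 h). The 3 panels span the same number of log2 units, and Fpr1 rises from 9.90 to 12.70 between 0 h and 2 h while Anxa1 is highest, at 12.25, at 6 h.

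These calls stood against a wide background of change in the blood. At 1, 2 and 3 h, 21.7%, 21.7% and 27.3% of all probe sets were called higher than before occlusion, and at 6 and 24 h 22.5% and 17.4% were. All 3 probe sets were called higher at 1, 2, 3 and 6 h, and Fpr1 and Anxa1 at 24 h. The median change of all probe sets lay between 0.04 and 0.07 at the 5 time points, and the central 90% of probe sets between -0.62 and 0.42 at 6 h. By the F-test over the 6 time points, which 55.5% of all probe sets passed, Fpr1 ranked 104th, Anxa1 378th and Fpr2/Fpr2l 1277th (adjusted p = 3.0e-20, 2.6e-16 and 1.0e-10).

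**Figure D2:**
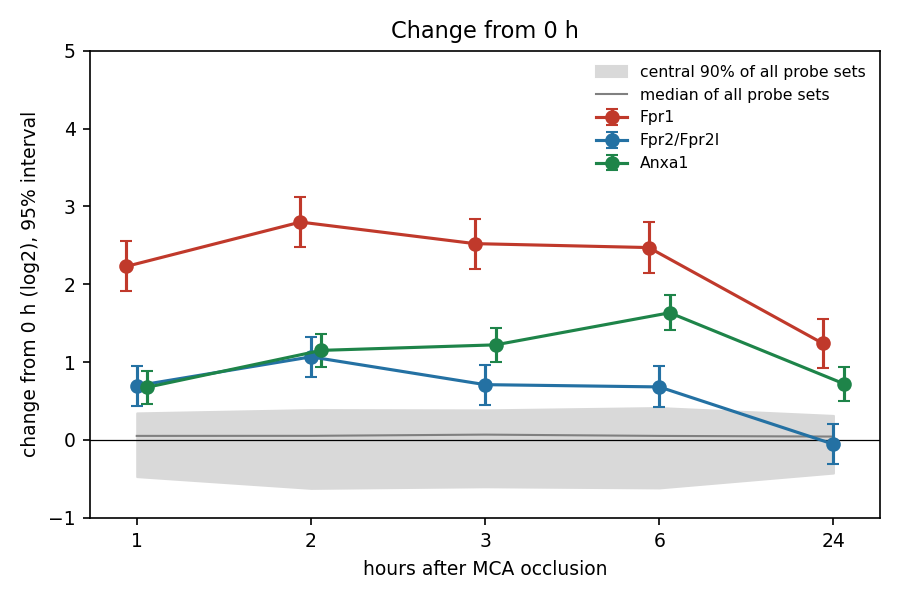
Log2 change from 0 h (y axis) of the 3 probe sets at 1, 2, 3, 6 and 24 h after MCA occlusion (x axis), with 95% intervals from the moderated fit. The gray band is the central 90% of all 27596 probe sets, and at 24 h the interval of Fpr2/Fpr2l, from -0.31 to 0.20, is the only one that includes 0.

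The spread between arrays also differed between time points. For Fpr1 the deposited SD was 5.69 times the 6 h SD at 0 h and 6.20 times at 24 h. For Anxa1 these ratios were 3.40 and 5.24, and for Fpr2/Fpr2l 1.72 and 1.66. Over all probe sets, the median of this ratio was 0.93 at 0 h and 0.97 at 24 h. With the spread taken from only the time points compared, the change of Fpr1 at 24 h still passed the test. Its adjusted p was then 0.00045 in place of 7.3e-08. The change of Anxa1 at 24 h passed with 0.0011 in place of 1.3e-06.

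Among the other formyl peptide receptor genes, Fpr3 went the opposite way. Of 5 listed, 4 were matched on the array, and Fpr3 was lower than 0 h at all 5 later time points. Its mean log2 signal was 7.82 (SD 0.37) before occlusion. At 1, 2 and 3 h it was 7.22 (SD 0.37), 6.98 (SD 0.23) and 6.55 (SD 0.47), and at 6 and 24 h it was 6.42 (SD 0.41) and 6.89 (SD 0.31). The change at 6 h was -1.40 ± 0.18 (adjusted p = 1.4e-08), where 19.3% of all probe sets were called lower. At 1, 2, 3 and 24 h, the shares called lower were 15.4%, 18.6%, 19.2% and 13.9%. Fpr-rs3, Fpr-rs4 and Fpr-rs6, receptors of the same family, were not called at any time, with changes between -0.04 and 0.14. The probe set of Fpr-rs4 also carries the symbol of Vom2r10, a vomeronasal receptor.

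Near the Fpr1 gene, within 250 kb on rn5, 3 of 10 other probe sets were called higher at 2 h, a share near the 21.7% of all probe sets. This window was chosen after the values were seen. They were Fpr2/Fpr2l, Has1, a hyaluronan synthase, with a change of 0.61 (adjusted p = 1.1e-07), and 1 of the 3 probe sets of LOC688452 with 0.32 (adjusted p = 0.0028). Fpr-rs3, 135 kb away, was -0.04 at 2 h. Around Anxa1 the window held 2 probe sets, both without a symbol, of which 1 was higher at 2 h.

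All 11 other annexins were measured, and 5 were called higher and 3 lower at 2 h, with a median change of 0.15. At 6 h 6 were higher and 2 lower, and at 24 h 3 were higher and 1 lower. For these 3 times the background was 21.7%, 22.5% and 17.4% higher, with 18.6%, 19.3% and 13.9% lower, so the lower counts at 6 h and 24 h do not exceed the background. Anxa3, a neutrophil annexin, was nearest to Anxa1 in size, with 1.26 at 2 h and 1.87 ± 0.15 at 6 h (adjusted p = 3.0e-14), but its 0.34 at 24 h did not pass the test (adjusted p = 0.072). Anxa11 and Anxa2, the latter a membrane-binding partner of S100a10, rose by 1.02 and 0.98 at 6 h. Anxa5, which binds phosphatidylserine, was lower at all 5 time points, with its largest change of -0.73 at 1 h.

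**Figure D3:**
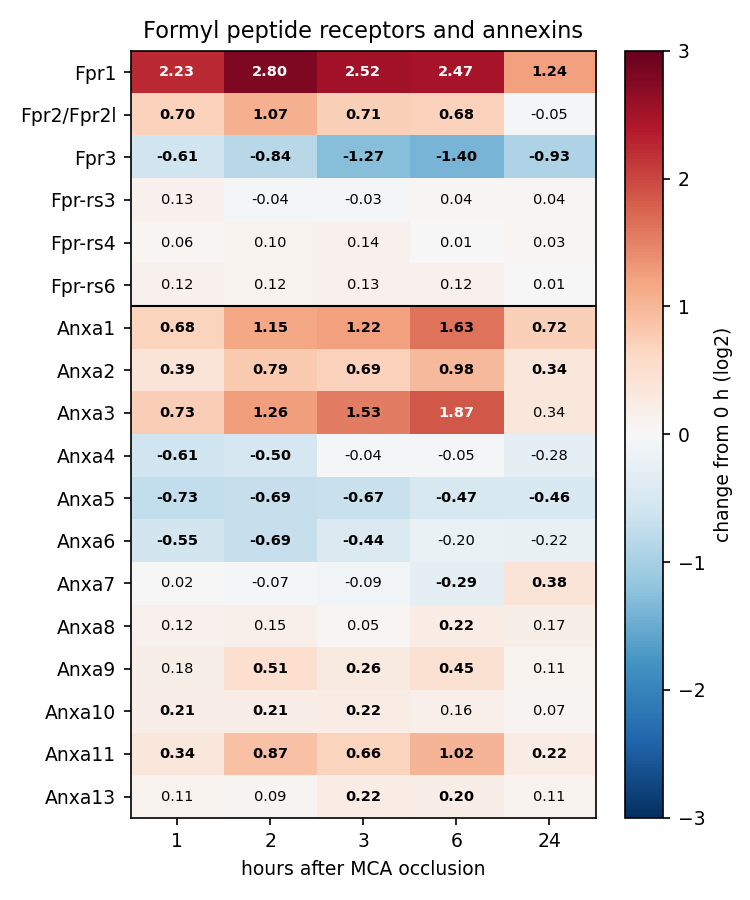
Log2 change from 0 h (color and printed value) of the formyl peptide receptor genes and of the annexins (rows) at 1, 2, 3, 6 and 24 h after MCA occlusion (columns), with bold type where the adjusted p was below 0.05. Fpr1 and Fpr3 run in opposite directions, at 2.47 and -1.40 at 6 h, and Anxa3 is close to Anxa1 up to 6 h.

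Of the 3 genes of S100 proteins that pair with annexins, 1 was called higher and 1 lower at 2 h. Over all probe sets 21.7% were higher and 18.6% lower, so with 3 genes these counts are near the background. S100a11, a partner of annexin A1, was higher at 1, 2, 3 and 6 h, by 0.55 at 2 h (adjusted p = 2.0e-09). S100a10, a partner of annexin A2, was lower at all 5 time points, with a change of -0.61 at 2 h. S100a6 was not called at any time, with changes between -0.45 and 0.29 and a deposited SD of 0.59 at 0 h.

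Genes for other agonists of the receptors, or for enzymes of lipid agonists and leukotrienes, were mostly higher. Of the 11, 9 were called higher and 1 lower at 2 h, with a median change of 0.64, against 0.05 for all probe sets. At 6 h 8 were higher, with a median of 1.15, and at 24 h 6 were higher and 1 lower, with a median of 0.18. At 2, 6 and 24 h, the shares of all probe sets called higher were 21.7%, 22.5% and 17.4%, and those called lower 18.6%, 19.3% and 13.9%. The list includes Lta4h, an enzyme of leukotrienes, and Saa4, whose probe set also carries the symbol Hps5. Both were called higher at these times. Camp, which encodes the cathelicidin that activates Fpr2, rose by 2.11 at 2 h (adjusted p = 3.1e-14). Like Fpr2/Fpr2l, it was not called at 24 h. Alox5, the 5-lipoxygenase needed for leukotrienes and lipoxins, rose by 2.11 at 2 h and was 1.31 higher at 6 h. Alox5ap, its activating protein, rose by 1.92 at 2 h and by 2.31 at 6 h. Both were still higher at 24 h, by 0.61 for Alox5 and 0.83 for Alox5ap. Hebp1, the source of a peptide ligand of formyl peptide receptors, rose by 1.32 at 6 h and was 0.01 at 24 h.

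Genes of the cleavage, export and regulation of annexin A1, together with its target Pla2g4a, had called changes in both directions, each of at most 0.40 in size on the log2 scale. Of the 6, 2 were higher and 2 lower at 1 h, where 21.7% of all probe sets were called higher and 15.4% lower. At 2 h 1 was higher and 2 lower, against 21.7% and 18.6%, with a median change of -0.10. At 3 h 2 were higher, against 27.3%, and at 6 h and 24 h 1 was, against 22.5% and 17.4%. The counts higher at 2, 3, 6 and 24 h are thus near the background. Elane, the neutrophil elastase that can cut annexin A1, was higher by 0.34 at 6 h (adjusted p = 8.0e-05). Prtn3, the proteinase 3 that also cuts it, was not called at any time. Pla2g4a, the cytosolic phospholipase A2 that annexin A1 inhibits, was lower at 1 h and 2 h, with changes of -0.38 and -0.33, and higher at 3 h, with 0.40. Capn1, a calpain protease, was higher by 0.25 at 1 h only, and Trpm7, a channel kinase that phosphorylates annexin A1, was lower at 2 h only, at -0.27.

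Downstream of the receptors, the Gi signalling genes had called members on both sides. Of 20 measured of 21 listed, 9 were higher and 3 lower at 2 h, and 11 higher and 3 lower at 6 h, with medians of 0.13 and 0.22. At 24 h 4 were higher and 4 lower. At 2, 6 and 24 h, 21.7%, 22.5% and 17.4% of all probe sets were higher and 18.6%, 19.3% and 13.9% were lower, so the counts lower and those at 24 h are near the background. The largest rise was that of Plcb2, a phospholipase C of leukocytes, by 1.45 at 2 h (adjusted p = 3.1e-19), from a probe set that also carries the symbol Ankrd63. Pik3r6, a regulatory subunit of phosphoinositide 3-kinase gamma, rose by 0.50 at 6 h. Pik3cg, the catalytic subunit of the same kinase, was lower, at -0.80, and so was Elmo1, which acts with Dock2 on Rac, at -0.66, both at 6 h.

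Of 11 genes of receptor desensitization, 4 were higher and 2 lower at 2 h, and 4 higher and 3 lower at 6 h. Over all probe sets 21.7% and 22.5% were higher at these times, and 18.6% and 19.3% lower, so the count lower at 2 h is at the background share. Grk5, a kinase of G protein-coupled receptors, was higher at all 5 time points, by 0.73 at 6 h, and Adrbk2, another such kinase, was lower at all 5, with -1.05 at 2 h. Rgs1, a regulator of G protein signalling, was higher at 1 h, with a change of 1.32, and lower at 24 h, with -0.70, with a deposited SD of 0.79 at 0 h. Rgs2, of the same family, was lower at 1 h, with -0.37, and higher at 6 h, with 0.84.

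The NADPH oxidase, which formyl peptides activate in neutrophils, had 1 membrane subunit that was lower while others were higher. The cytosolic subunits Ncf4 and Ncf1 rose by 1.08 and 0.95 at 2 h (adjusted p = 1.9e-12 and 5.0e-11) and were still higher at 24 h, by 0.70 and 0.30. Cybb, the membrane subunit that carries electrons to oxygen, was lower, with changes of -0.58 at 2 h (adjusted p = 1.3e-05) and -0.27 at 24 h. Cyba, its membrane partner, was higher by 0.55 at 2 h (adjusted p = 1.5e-05) and by 0.28 at 6 h.

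Among other chemoattractant receptors of myeloid cells, 10 of the 13 listed symbols were matched. At 2 h 6 were higher and 2 lower, with a median change of 0.49, and at 6 h 6 were higher and 2 lower, with a median of 0.61. At these times 21.7% and 22.5% of all probe sets were higher, and 18.6% and 19.3% lower, so the counts lower are near the background. Ccr1, a chemokine receptor, rose by 2.38 at 6 h (adjusted p = 2.0e-17), nearly as much as Fpr1 at that time. Ptafr, the receptor of platelet-activating factor, rose by 1.73 and Cxcr2, the main chemokine receptor of neutrophils, by 1.59 at 6 h. Ltb4r, the leukotriene B4 receptor, rose by 0.99 at 6 h and was 0.14 at 24 h. C3ar1, the receptor of complement C3a, was lower at all 5 time points, with -0.82 at 6 h, as Fpr3 was.

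Since glucocorticoids induce Anxa1 in many cells, a list of 9 glucocorticoid-related genes was described beside it. At 1 h 6 were higher and 1 lower, with a median change of 0.79, while at 6 h 4 were higher and 2 lower, with a median of 0.15. The background of all probe sets was 21.7% and 22.5% higher at these times, and 15.4% and 19.3% lower, so the counts lower are near the background. Fkbp5, an immunophilin of the glucocorticoid receptor complex, rose by 1.98 at 2 h and was 0.84 higher at 6 h. Zbtb16, a zinc finger factor, rose by 1.20 and Dusp1, a phosphatase of MAP kinases, by 1.19 at 2 h, and Dusp1 was still 1.16 higher at 6 h. Sgk1, a serum- and glucocorticoid-regulated kinase, was higher by 0.89 at 1 h and not called at 6 h. Tsc22d3, of the same list, was not called at any time, with changes between -0.11 and 0.21. Klf9, also listed, was higher by 0.27 at 1 h but lower at 6 h and 24 h, with -0.35 and -0.39. Nr3c1, the glucocorticoid receptor, was lower, with -0.66 at 6 h, a gene of the list that is not known as induced.

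**Figure D4:**
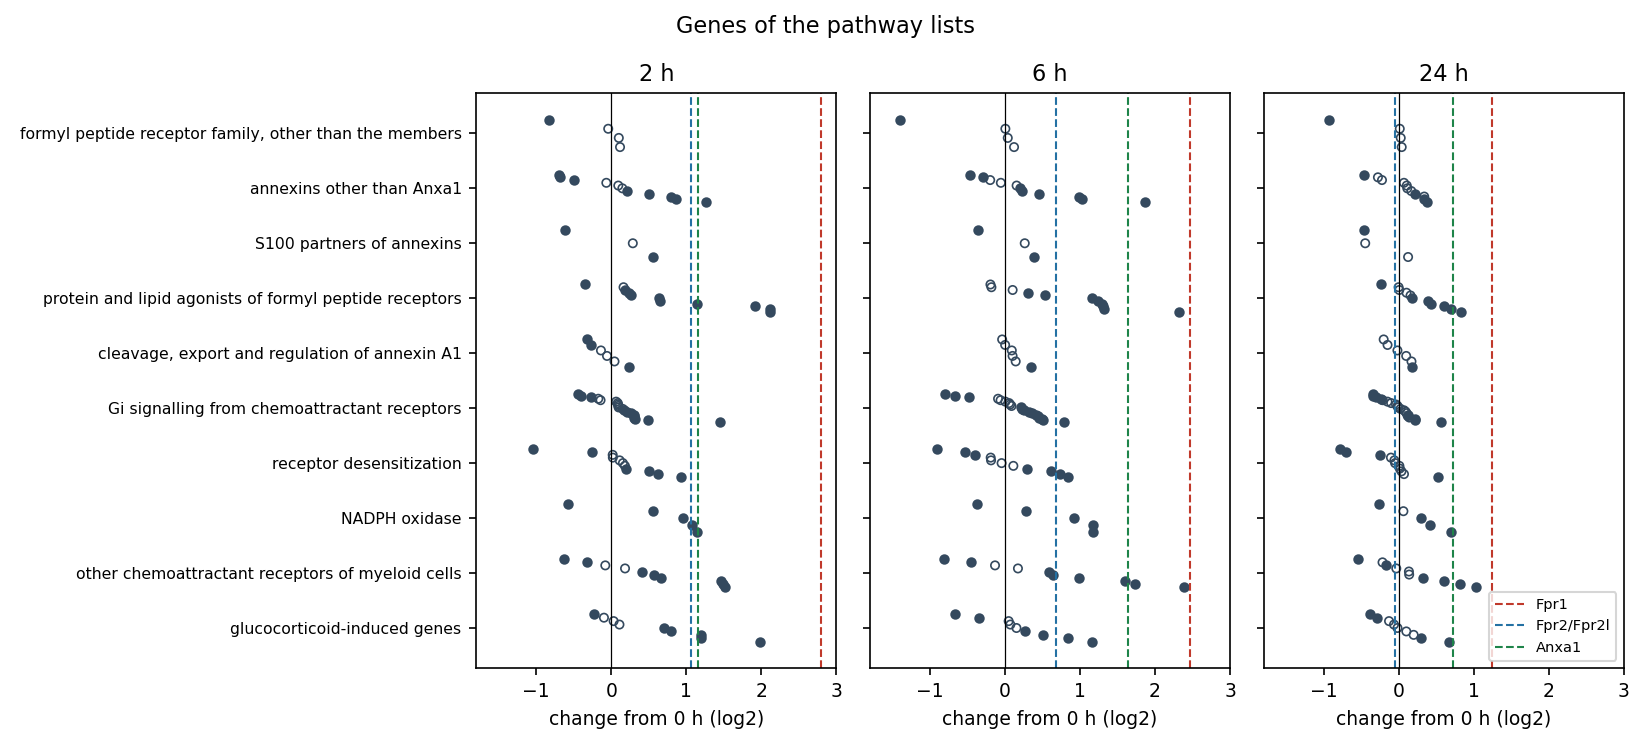
Log2 change from 0 h (x axis) of each gene of the 10 pathway lists (rows) at 2, 6 and 24 h after MCA occlusion, with filled points where the adjusted p was below 0.05 and open points elsewhere. Dashed lines mark Fpr1, Fpr2/Fpr2l and Anxa1, and at 2, 6 and 24 h no listed gene lies to the right of the Fpr1 line.

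Markers of the blood cell types moved at the same time. Of 14 neutrophil markers, 13, 12, 12, 12 and 9 were called higher at 1, 2, 3, 6 and 24 h, with medians of 0.82, 1.32, 1.18, 1.21 and 0.47. At these times 21.7%, 21.7%, 27.3%, 22.5% and 17.4% of all probe sets were higher, and 15.4%, 18.6%, 19.2%, 19.3% and 13.9% lower. Of the neutrophil markers 1, Ngp, was called lower at 24 h, with a change of -0.90 (adjusted p = 0.0026). All 10 B cell markers were lower at 2 h, with a median of -2.04, and all 11 T cell markers were lower at every later time point, with a median of -1.18 at 6 h. Of 7 NK cell markers 5 were lower at 2 h. Monocyte markers went both ways, with 5 higher and 5 lower of 12 at 2 h. Of 7 platelet markers, 4, 3 and 2 were higher at 1, 2 and 3 h and 5 at 24 h, and at 6 h their changes lay between -0.06 and 0.22. Of 6 erythroid markers, 2 were higher at 1 h, 2 lower at 6 h and 3 higher at 24 h, when their changes lay between 0.01 and 0.58. The part of these cells in the 24 h values of Fpr1 and Anxa1 was not tested. Alas2, the erythroid enzyme that starts heme synthesis, and Pf4, a platelet chemokine, had signals of 13.39 and 13.06 at 0 h.

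Set beside the neutrophil markers, the 3 probe sets differed in their place. No neutrophil marker had a larger change than Fpr1 at 1, 2, 3 or 24 h, and at 6 h only Lcn2, the granule protein lipocalin 2, did. For Fpr2/Fpr2l, 10 of the 14 markers had a larger change at 1, 2, 3 and 6 h, and 13 at 24 h. For Anxa1 the number with a larger change was 10, 8, 7, 4 and 4 at 1, 2, 3, 6 and 24 h. The part of cell numbers in the changes of Fpr1, Fpr2/Fpr2l and Anxa1 was not tested. Differences between probe sets of the same arrays were not tested either, since means and SDs do not hold how they vary together.

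**Figure D5:**
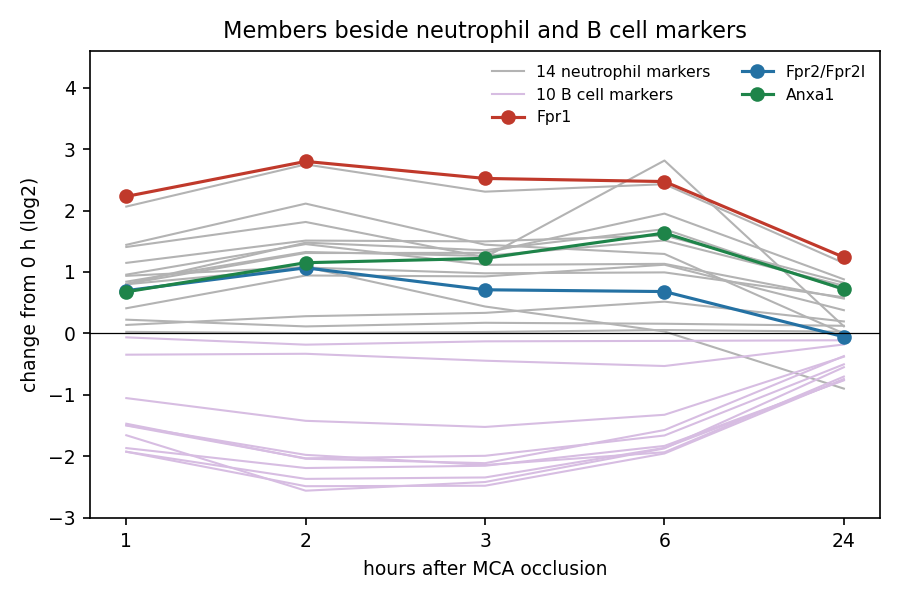
Log2 change from 0 h (y axis) of Fpr1, Fpr2/Fpr2l and Anxa1 (colored lines) at 1, 2, 3, 6 and 24 h after MCA occlusion (x axis), beside 14 neutrophil markers (gray lines) and 10 B cell markers (violet lines). Fpr1 lies above all neutrophil markers except Lcn2 at 6 h, Fpr2/Fpr2l lies below 10 of the 14 from 1 h to 6 h, and the B cell lines lie below 0.

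The likest time courses on the array were found as the smallest root mean square difference between profiles of the 6 means, each centred on its own average, among probe sets with 1 gene symbol that passed the F-test. For Fpr1 the nearest was Mmp9, the gelatinase of neutrophil granules, at 0.074 log2 units. Its changes were 2.06, 2.75, 2.31, 2.43 and 1.15 at 1, 2, 3, 6 and 24 h. The next 4 were much farther from Fpr1, at 0.24 to 0.29. They were Pram1, an adaptor protein, Mcemp1, a membrane protein named after mast cells, Bmx, a tyrosine kinase, and Dhrs9, a dehydrogenase.

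For Fpr2/Fpr2l the nearest profiles were those of Nuak2, a kinase related to SNF1, Mbd1, a methyl-CpG binding protein, Gprc5d, an orphan receptor, Pcp4, a calmodulin-binding protein, and Ifit3, an interferon-induced protein, at 0.071 to 0.10. Their largest changes lay between 0.85 and 1.24. For Anxa1 they were Fndc3b, a fibronectin type III domain protein, Rgsl1, a relative of the regulators of G protein signalling, Tgfbr1, a receptor of transforming growth factor beta, Olr801, an olfactory receptor, and Rab24, a small GTPase, at 0.051 to 0.080. All 5 were highest at 6 h, with changes between 1.44 and 1.57. Likeness over 6 means is a description, and by Pearson correlation in its place 1 of the 5 genes was again among the nearest for Fpr1, none for Fpr2/Fpr2l and 1 for Anxa1.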

How the data were processed

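Each RNA sample was amplified by a whole-transcript method and hybridized to a GeneChip RatGene 1.0 ST array. The authors summarized the arrays by RMA, which corrects background, quantile normalizes arrays and merges probes into 1 value per probe set. Their deposited table gives the mean and SD of the log2 signal of 27596 probe sets at each time point, with annotation on rn5. The labels name limma in the submitters' processing notes, with no version. The table also holds the authors' fold changes, p-values and FDRs against 0 h and F-tests, which were not used. Nor were 47 columns of single arrays, whose names do not give the rat or time point, so values of single rats are not shown.

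A moderated test was computed from the SDs, means and numbers of arrays with limma 3.58.1 in R 4.3.3, with 1 spread per probe set over the 6 time points. P-values were Benjamini-Hochberg adjusted over all probe sets within each comparison, and called means an adjusted p below 0.05. No pseudocount or filter was applied. The test was tested on simulated data. It takes arrays as independent although the same rats were sampled repeatedly. The number of arrays limits the precision, and signals of different probe sets are not comparable as levels.

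Lists of receptors, ligands, signalling genes and cell markers were used with 1 probe set per symbol, that of highest mean. Fpr-rs7, Gng2, C5ar1, Gpr77, C5ar2 and Itgb3 were not matched. Named were the 4 genes, up to 4 genes per list with the largest called change at any time (all in lists of 3 or fewer), and the 5 likest profiles for each probe set. Others, chosen after their values were seen, are the 3 uncalled receptors, Prtn3, Cyba, C3ar1, Nr3c1, Lcn2, Alas2, Pf4 and the neighbors on the chromosome. The same holds for Lta4h, Saa4, Ngp, Tsc22d3 and Klf9. The result of 1 gene of a list is not reported here. The members and lists were chosen with earlier results of these data known. Alternatives were an ordinary test, an intensity trend with robust prior, centred or quantile normalized means, leaving out the 25% of probe sets of lowest signal, a spread from only the time points compared, the F-test without 24 h, any probe set of a symbol, and Pearson correlation for likeness.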

Additional observations from a re-analysis of the deposited data

How the results depend on the processing

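For the 3 probe sets, 30 differences and F-tests were each computed under 6 alternatives. Of these 180 values, 177 kept their direction and their side of the threshold, where a direction is read only for called values. The exceptions were the step of Fpr2/Fpr2l from 1 h to 2 h, which passed the threshold as 0.39 with means centred on their median (adjusted p = 0.043), as 0.37 without the 25% of lowest signal (adjusted p = 0.046) and as 0.37 with the spread of only these time points (adjusted p = 0.023). Over all its alternatives its adjusted p ranged from 0.023 to 0.076, and the cause was not tested. The uncalled 24 h change of Fpr2/Fpr2l was 0.03 with quantile normalized means and -0.10 with centred means. The number of probe sets called between 6 h and 3 h was 1319, and 737 with the spread of only these time points, which rests on fewer samples. Scaling moved the median of the means by at most 0.05. With any probe set of a symbol in place of that of highest mean, 4 in place of 3 Gi signalling genes were lower at 2 h and at 6 h. None of the 4 symbols has another probe set, so that choice could not be varied for them. No paired analysis was possible because the columns used are means over rats. The names of the 47 single-array columns hold only running numbers, and a match to rats by column order was not accepted. For the same reason no replicate was left out in turn, and how far signals lay above background on each array was not examined.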
